A study of Mus musculus with 12 samples.

Results

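The calpains and their inhibitor calpastatin were examined in RNA from mouse pancreatic islets. The 7 genes (Capn1, Capn2, Capn5, Capn7, Capn10, Capns1 and Cast) were taken by name, whatever their values, from a table of 24078 transcripts, and each was listed once. All 7 had reads in every animal and passed the filter on low values, a mean of at least 0.1 RPKM, that left 21701 transcripts for testing.

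Calpains are cysteine proteases of the cytosol that are switched on by calcium and cut a limited set of proteins at few sites, so that they modify their substrates more often than they destroy them. The classical enzymes, calpain-1 and calpain-2, are each a pair of a large catalytic subunit (from Capn1 or Capn2) and a shared small regulatory subunit (from Capns1), and calpastatin (from Cast) blocks both. In islets, calpains have been tied to insulin secretion and to beta cell death, and CAPN10 was described as a candidate gene for type 2 diabetes. Enzyme activity depends on calcium and on calpastatin, and the RNA levels given here do not measure it.

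Islets came from male mice of 5 to 6 months, all F2 hybrids of 129S6/SvEvTac and C57BL/6 from the Wfs1tm1Koks line. There were 4 wild-type (WT), 4 heterozygous (Wfs1HZ) and 4 homozygous mutant (Wfs1KO) animals, with 1 library for each. In the mutant allele a LacZ cassette stands in place of most of exon 8 of Wfs1, the gene of the endoplasmic reticulum protein wolframin, in every cell of the animal and not in islets alone, and a truncated fusion protein is made. All islets were hand-picked after collagenase digestion and kept overnight in high glucose medium before RNA was extracted. Levels are RPKM, reads scaled to transcript length and to a read total of the library.

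Wfs1 itself was read first, as a check of the labels. Its level in WT animals 1 to 4 was 33.94, 27.37, 24.85 and 28.43 RPKM. In Wfs1HZ animals it was 15.03, 4.69, 16.43 and 8.16 RPKM, and in Wfs1KO animals 5.08, 6.61, 3.46 and 2.45 RPKM. All mutant animals of both kinds lay below all WT animals, while Wfs1HZ and Wfs1KO overlapped because Wfs1HZ 2 was as low as the knockouts. Relative to WT, Wfs1 in Wfs1KO gave a log2 fold change of -2.76 (SE 0.29, adjusted p = 0.04, limma with Benjamini-Hochberg adjustment, 0.011 to 0.541 over the alternatives run).

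The depth, estimated from the steps between RPKM values, was 2188000 to 9554000 reads per library and was lowest in Wfs1HZ 2. This is far fewer than the sequenced reads the paper describes, and which reads the RPKM were scaled to is not given, so every estimated read number and floor below rests on this estimate. With 3 reads on a transcript of 2 kb as the floor, this depth detects 0.157 to 0.686 RPKM. The islet label was checked against 10 endocrine markers, of which 9, the hormone genes Ins1, Ins2 and Gcg among them, had reads in every animal, while the beta cell factor Mafa was listed at 0 in 10 of 12 animals, all WT animals included. RNA of other pancreatic cells was present. The summed level of 7 acinar markers was 49500 to 110000 RPKM in WT, 8190 to 287000 RPKM in Wfs1HZ and 7780 to 258000 RPKM in Wfs1KO. The summed level of 4 stromal markers was 15.3 to 42.5 RPKM in WT, 11.0 to 273 RPKM in Wfs1HZ and 48.6 to 100 RPKM in Wfs1KO. All Wfs1KO sums thus lay above all WT sums, and 3 of the 4 markers had a higher mean in Wfs1KO. Taken singly, only Dcn lay apart, at 13.95 to 28.82 RPKM in WT and 41.96 to 73.07 RPKM in Wfs1KO. Col1a1, Col3a1 and Pdgfrb overlapped between these groups. Wfs1HZ 2 held the highest level of each of the 4 stromal markers. Fewer cells of a type and less RNA per cell cannot be told apart in such bulk samples.

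The 7 genes lie apart in the genome, and none shares a chromosome with Wfs1, which is on chromosome 5. On mm10 (GENCODE M21), Capn1 is at chr19:5988545-6015897, Capn2 at chr1:182467260-182517608, Capns1 at chr7:30186936-30198811 and Cast at chr13:74692368-74808810, all on the minus strand. Capn5 is at chr7:98121559-98178274 on the minus strand, and Capn7 at chr14:31336638-31371986 and Capn10 at chr1:92934376-92947941 are on the plus strand. Other genes on the opposite strand cover part of the exons of 6 of the 7. The antisense genes Gm37885, 9430060I03Rik, Gm10814 and Gm26810 share 27.1% of the exon length of Capn2, 14.7% of that of Capn10, 11.8% of that of Capn1 and 8.2% of that of Capns1, respectively. Erap1, an aminopeptidase gene, shares 7.3% of the exon length of Cast, and Sh3bp5 shares 2.4% of that of Capn7. Whether reads were counted by strand is not given in the sources used here, so reads from these stretches cannot be assigned to either gene with certainty.

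The 7 genes differed widely in level. Capns1, the small subunit, was the most abundant, with a mean of 225 ± 51.8 RPKM (SD, n = 12), above 99.5% of the tested transcripts. Capn2 had a mean of 43.5 ± 12.1 RPKM (SD, n = 12) and lay above 95.5% of them. Capn1, the other classical catalytic subunit, had a mean of only 4.25 ± 1.09 RPKM (SD, n = 12). The inhibitor Cast stood between these at 14.7 ± 3.53 RPKM (SD, n = 12). Of the non-classical calpains, which lack the small subunit as a partner, Capn7 had a mean of 23.1 ± 5.55 RPKM (SD, n = 12), Capn5 15.2 ± 3.27 RPKM (SD, n = 12) and Capn10, the diabetes candidate, only 1.54 ± 0.498 RPKM (SD, n = 12).

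Neighbours in this order were compared within animals by an exact two-sided sign-flip permutation test of log2 levels over 12 animals, with Benjamini-Hochberg adjustment over the 6 pairs. Capns1 was 5.2-fold above Capn2, Capn2 1.88-fold above Capn7, Cast 3.44-fold above Capn1 and Capn1 2.68-fold above Capn10. Each of these differences had the same direction in 12 of 12 animals (exact p = 0.000488, the smallest that these animals can give, adjusted p = 0.000732). Capn7 was 1.5-fold above Capn5, in 10 of 12 animals (exact p = 0.0107, adjusted p = 0.0128). Capn5 and Cast did not differ beyond their spread, with a 1.03-fold difference and Capn5 higher in 7 of 12 animals (exact p = 0.761). RPKM corrects for length but not for how well a transcript is amplified or mapped, so ratios between genes also carry those effects.

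The rest of the family was looked at to see which calpain genes the islets expressed at all. Of 9 other calpain genes, Capn12 had a mean of 3.95 RPKM, Capn15 (listed under its older name Solh) 2.84 RPKM and Capn8 1.37 RPKM. The other 6 had means under 1 RPKM. These were the muscle calpain Capn3, Capn6, Capn9, Capn11, Capn13 and the second small subunit gene Capns2. Capn6 had 6 to 26 estimated reads and was above the floor of 3 reads in every library, while each of the other 5 fell under it in at least 1 library and had at most 11 reads. By contrast Capns1 rested on 682 to 4324 estimated reads per library, Capn2 on 358 to 1164, Capn7 on 265 to 1256, Cast on 220 to 607 and Capn5 on 100 to 724. Capn1, with 25 to 155 reads, and Capn10, with 5 to 59 reads, were measured less precisely.

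**Figure D1:**
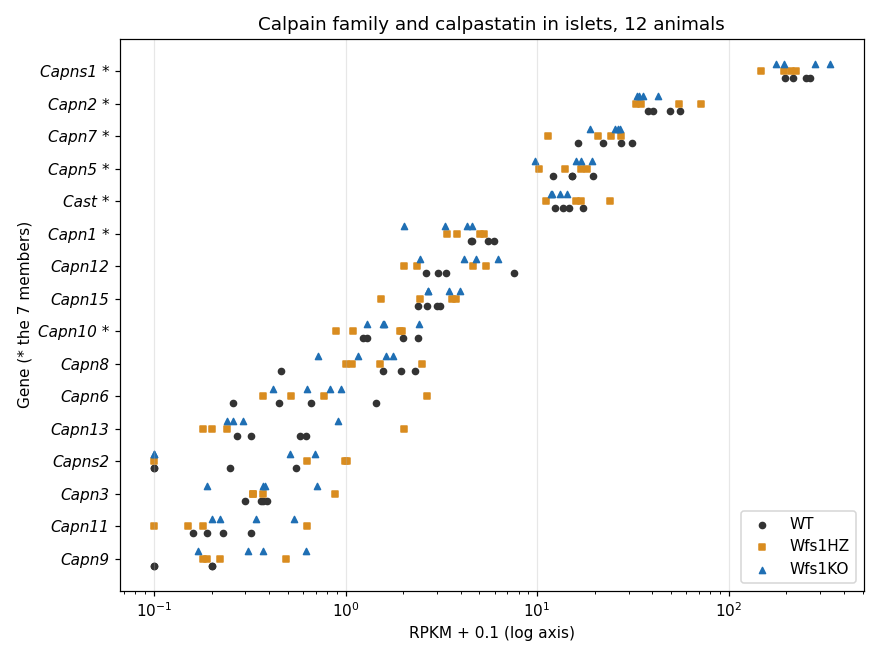
Level of 16 calpain family and calpastatin genes in the islets of each of 12 animals, as RPKM + 0.1 on a log axis, with genes ordered by mean level and 1 symbol per animal coloured by genotype. Capns1 stands above all others, Capn2 above the remaining catalytic subunits, and 6 genes lie under a mean of 1 RPKM.

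Of the summed RPKM of the 13 catalytic calpain genes, Capn2 made up 45.0% ± 7.12 in WT, 47.5% ± 7.38 in Wfs1HZ and 39.6% ± 3.2 in Wfs1KO islets (SD, n = 4 each). Capn7 made up 23.8%, 20.8% and 26.6%, and Capn5 15.2%, 15.8% and 16.8%, in the same order of genotypes. Capn1 made up 4.97% ± 0.804 in WT, 4.49% ± 1.58 in Wfs1HZ and 3.82% ± 1.34 in Wfs1KO islets (SD, n = 4 each). Capn2 thus led the catalytic subunits in each genotype, and its ranges, 36.1 to 51.5% in WT and 35.5 to 42.5% in Wfs1KO, overlapped.

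The main question of the design was whether loss of Wfs1 went with another level of these genes. None of the 7 passed an FDR of 0.05 between Wfs1KO and WT in limma, against 0.0138% of all tested transcripts. None had an unadjusted p under 0.05, against 5.64% of all tested transcripts. With the values as deposited, none had animals that did not overlap between the groups, against 2.74%. The members' median log2 fold change was -0.02 (-0.17 to -0.02 with 1 animal left out), with 3 of the 7 above 0 and 4 below, beside 0.07 over all tested transcripts. The widest differences were those of the classical catalytic subunits Capn1 and Capn2, both with lower means in Wfs1KO.

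The level of Capn1 in WT animals 1 to 4 was 5.85, 5.42, 4.40 and 4.45 RPKM. In Wfs1HZ animals it was 5.19, 3.70, 3.27 and 4.92 RPKM, and in Wfs1KO animals 4.47, 1.93, 3.22 and 4.18 RPKM. Of the Wfs1KO animals 3 lay below the lowest WT animal and the fourth, Wfs1KO 1, just above it, while Wfs1KO 2 was the lowest of all 12. The means were 5.03 ± 0.721, 4.27 ± 0.93 and 3.45 ± 1.15 RPKM in WT, Wfs1HZ and Wfs1KO (SD, n = 4 each). Relative to WT, Capn1 in Wfs1KO gave a log2 fold change of -0.59 (SE 0.30, 95% interval -1.26 to 0.08, limma adjusted p = 0.879, exact permutation p = 0.086 with 0.029 as the smallest possible). As a ratio this was 0.665, with an interval from 0.418 to 1.06, so that neither a fall to less than 50% nor no difference lies outside it. Without Wfs1KO 2 the log2 fold change was -0.34. The antisense gene Gm10814, which overlaps Capn1, was at 0.715 ± 0.446 RPKM in WT and 0.498 ± 0.445 RPKM in Wfs1KO (SD, n = 4 each).

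Capn2 was at 37.69, 40.41, 55.42 and 49.57 RPKM in WT animals 1 to 4. It was at 55.22, 71.72, 34.64 and 32.61 RPKM in Wfs1HZ and at 33.04, 42.56, 35.58 and 34.04 RPKM in Wfs1KO animals. Again 3 Wfs1KO animals lay below all WT animals and 1, Wfs1KO 2, lay among them, and Wfs1HZ was split into 2 high and 2 low animals. The means were 45.8 ± 8.2, 48.5 ± 18.5 and 36.3 ± 4.3 RPKM (SD, n = 4 each). The log2 fold change of Capn2 in Wfs1KO over WT came to -0.32 (SE 0.17, 95% interval -0.71 to 0.07, limma adjusted p = 0.879, exact permutation p = 0.086). Wfs1KO 2, which had the lowest Capn1, had the highest Capn2 of its group.

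Capns1, whose product pairs with both classical subunits, gave no such lower mean. Its levels in WT animals 1 to 4 were 216.36, 195.68, 265.57 and 252.35 RPKM. In Wfs1HZ they were 225.32, 194.90, 211.62 and 147.93 RPKM, and in Wfs1KO 282.87, 336.76, 193.72 and 176.18 RPKM. The Wfs1KO animals fell on both sides of the WT range, with 2 above it and 2 below. In Wfs1KO over WT this came to 0.05 on the log2 scale (SE 0.26, 95% interval -0.53 to 0.63, limma adjusted p = 0.998).

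Cast, the inhibitor, was at 13.61, 12.30, 17.21 and 14.55 RPKM in WT animals 1 to 4. In Wfs1HZ it was at 16.77, 23.95, 15.80 and 11.09 RPKM and in Wfs1KO at 11.80, 14.18, 11.76 and 13.14 RPKM. The Wfs1KO animals were close to each other and reached into the WT range, and Wfs1HZ 2 was the highest of all. In Wfs1KO over WT Cast gave a log2 fold change of -0.17 (SE 0.16, 95% interval -0.54 to 0.20, limma adjusted p = 0.934, exact permutation p = 0.171). Erap1, which overlaps Cast, had the same mean in WT and Wfs1KO, 31.6 RPKM, and 21.5 RPKM in Wfs1HZ.

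The 3 non-classical calpains gave differences near 0 between Wfs1KO and WT. Capn5, which is expressed in many tissues, was at 15.07, 12.01, 15.14 and 19.43 RPKM in WT, 18.19, 10.16, 13.93 and 16.87 RPKM in Wfs1HZ and 16.84, 19.34, 15.87 and 9.65 RPKM in Wfs1KO animals 1 to 4. The 3 ranges lay on top of each other, and Wfs1KO over WT gave a log2 fold change of -0.02 (95% interval -0.58 to 0.53). Capn7, whose product binds the membrane-sorting ESCRT machinery, was at 31.04, 27.33, 21.89 and 16.31 RPKM in WT, 20.80, 27.15, 24.15 and 11.31 RPKM in Wfs1HZ and 26.29, 27.07, 18.88 and 25.41 RPKM in Wfs1KO. Its Wfs1KO values lay wholly within the WT range (log2 fold change 0.04, 95% interval -0.47 to 0.56). Capn10 was at 1.14, 2.28, 1.90 and 1.19 RPKM in WT, 1.83, 0.79, 0.99 and 1.86 RPKM in Wfs1HZ and 1.48, 1.46, 1.20 and 2.31 RPKM in Wfs1KO. Here too the groups overlapped throughout (log2 fold change 0.01, 95% interval -0.82 to 0.83). As ratios, the upper limits for Capn5 and Capn7 were 1.45-fold and 1.47-fold, whereas for Capn10 the interval ran from 56.7% of the WT level to 1.78-fold.

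The stromal and acinar sums given above also differed between these libraries, and their part in the members' values was not tested. Leaving out single animals turned the sign of the small differences of Capn5, Capn7, Capn10 and Capns1, and those of Capn7 and Capn10 also turned under another scaling.

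**Figure D2:**
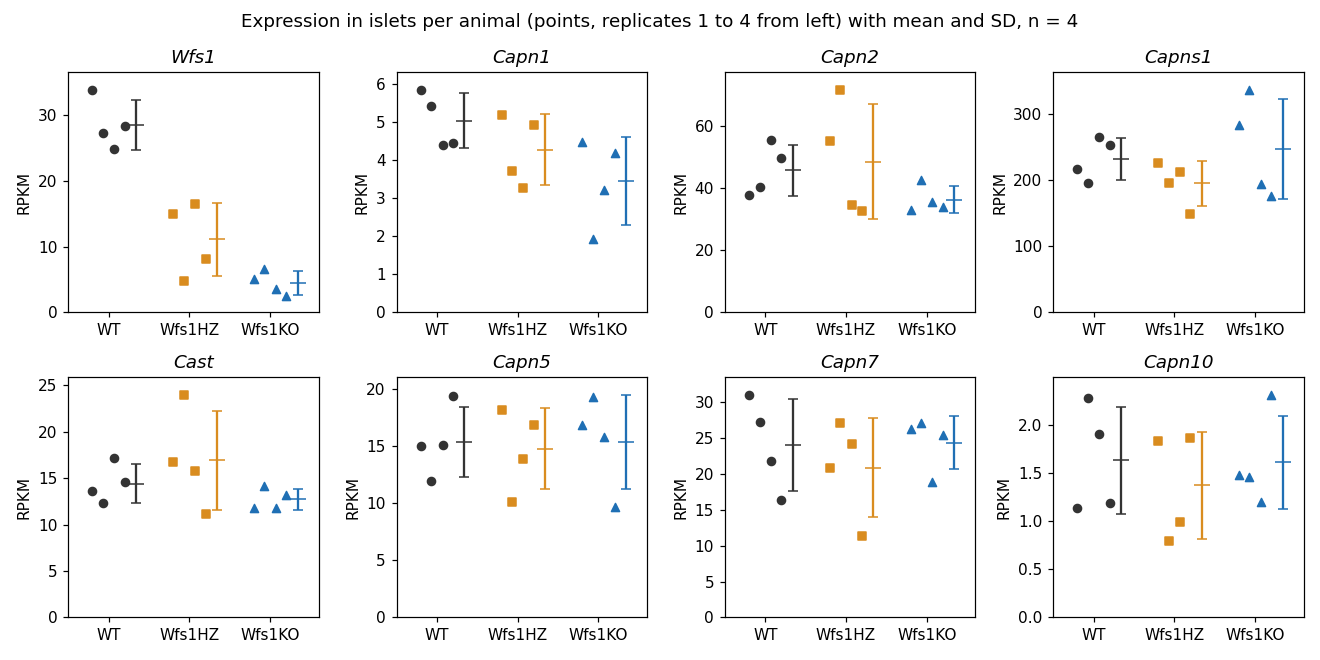
Level of Wfs1 and the 7 genes in each animal (RPKM, 1 symbol per animal, 4 animals per genotype, with mean and SD beside them). Wfs1 separates WT from both mutant groups, whereas for each of the 7 genes the groups overlap, and Wfs1HZ 2 is the highest point for Capn2 and Cast in the deposited values.

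Between Wfs1KO and Wfs1HZ none of the 7 passed an FDR of 0.05 in limma, and no transcript of the table did (0%). None had an unadjusted p under 0.05, against 2.45% of all tested transcripts, or groups without overlap, against 1.43%. The targeted gene Wfs1, at -1.24 (95% interval -2.26 to -0.23), did not pass the FDR here either. The lack of calls at this FDR thus says little about the members. The paper's own test, on read counts, did call genes in this comparison. The members' median log2 fold change was 0.05 (-0.12 to 0.16 with 1 animal left out), with 4 higher and 3 lower, beside 0.04 over all tested transcripts. Cast gave -0.36 (SE 0.26, 95% interval -0.94 to 0.22), Capn2 -0.35 (SE 0.28, 95% interval -0.97 to 0.27) and Capn1 -0.34 (SE 0.37, 95% interval -1.16 to 0.48), all with a limma adjusted p of 1.0. Capns1 gave 0.31 (SE 0.30, 95% interval -0.36 to 0.98). The log2 fold changes of Capn7, Capn10 and Capn5 were 0.28, 0.27 and 0.05. Without Wfs1HZ 2, Capn2 went to -0.13, Cast to -0.17 and Capn10 to 0.06. Without Wfs1KO 2, Capn1 went to -0.10 and Capns1 to 0.15, and without Wfs1HZ 4, Capn7 went to 0.02. Leaving out Wfs1HZ 4 made Cast lower in every Wfs1KO animal than in every remaining Wfs1HZ animal. The 2 scalings other than the deposited one had the same effect, without any adjusted p under 0.05. The 1.43% above is from the main fit, and the share of all tested transcripts under these settings is not given here.

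Between Wfs1HZ and WT no member was called either. None of the 7 passed an FDR of 0.05 in limma, nor did any transcript (0%), and none had an unadjusted p under 0.05 (2.35% of all tested transcripts) or groups without overlap (1.66%). Wfs1 itself, at -1.52 (95% interval -2.35 to -0.69) and with no overlap of animals, was not called at this FDR. The lack of such calls thus says little about the members here too. Of the members 2 were higher and 5 lower, and their median log2 fold change was -0.24 (-0.26 to -0.11 with 1 animal left out), beside 0.04 over all tested transcripts. Capns1 and Capn10 gave -0.26 each, Capn1 -0.25, Capn7 -0.24 and Capn5 -0.07. Their intervals all include 0, the narrowest being that of Capns1 (-0.79 to 0.26). Cast gave 0.19 (SE 0.25, 95% interval -0.38 to 0.75) and Capn2 0.02 (SE 0.28, 95% interval -0.60 to 0.65). Without Wfs1HZ 2, Cast went to 0.00 and Capn10 to -0.05, and without Wfs1HZ 4, Capns1 went to -0.13. In the deposited RPKM the CV within Wfs1HZ was 38.1% for Capn2 and 31.4% for Cast, against 17.9% and 14.4% in WT and 11.8% and 9.16% in Wfs1KO. This order depended on the scaling, since with median-of-ratios scaling the CV in Wfs1HZ was 16.9% for Capn2 and 5.49% for Cast, against 25.0% and 20.1% in WT and 21.3% and 15.0% in Wfs1KO. The comparisons share groups with each other and are not independent.

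**Figure D3:**
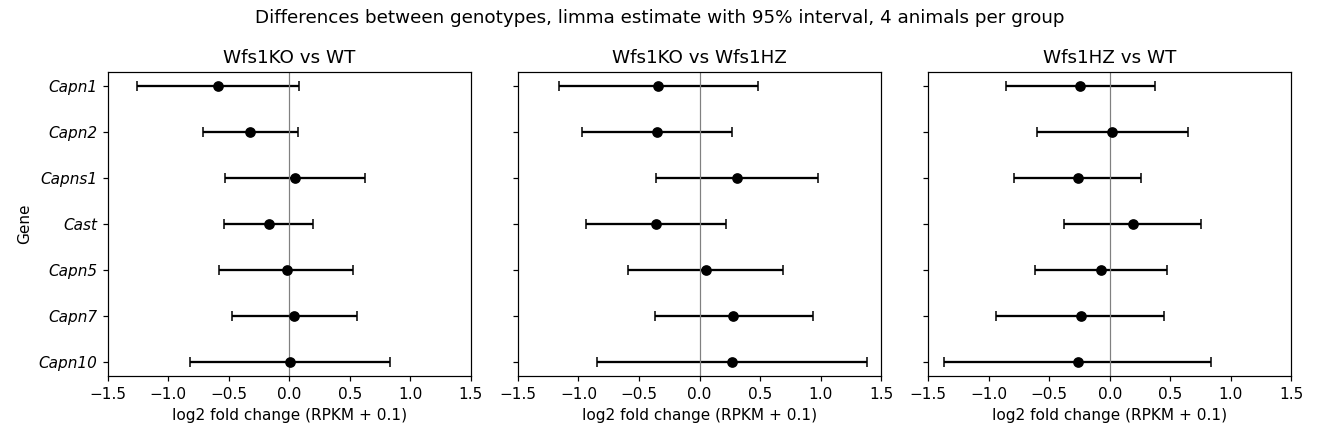
Log2 fold change on the log2(RPKM + 0.1) scale of each of the 7 genes in the 3 comparisons of genotypes, as limma estimates (points) with 95% intervals (bars), 4 animals per group. Every interval includes 0, and those of Capn1 and Capn2 between Wfs1KO and WT lie mostly below it, from -1.26 to 0.08 and from -0.71 to 0.07.

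Capn2 and Cast, the enzyme and its inhibitor, followed each other from animal to animal. As deposited, both were highest in Wfs1HZ 2, at 71.72 and 23.95 RPKM, and both were lowest in Wfs1HZ 4, at 32.61 and 11.09 RPKM. These libraries also had the highest and the lowest size factor of the 12, 1.39 and 0.641, and after median-of-ratios scaling they were alike, at 51.7 and 50.9 for Capn2 and at 17.3 each for Cast. On the log2 scale Pearson's r was 0.88 and Spearman's rho 0.83 over 12 animals, and r was 0.68 without Wfs1HZ 2 and WT 3, the animals farthest from the median of Capn2. Among 7995 transcripts at a mean level of 5 RPKM or more, Cast ranked 5 in likeness to Capn2, and Capn2 ranked 11 in likeness to Cast. With median-of-ratios scaling r was 0.86 and rho 0.80, r was 0.75 without Wfs1KO 4 and Wfs1KO 1, the farthest animals on that scale, and the ranks were 5 and 1 among 7880 transcripts. The points share libraries, depth and tissue makeup, and the 4 stromal markers summed to 273 RPKM in Wfs1HZ 2 and 11.0 RPKM in Wfs1HZ 4. The part of stromal RNA in this relation was not tested.

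The pairing did not extend to the other subunits. Between Capn2 and Capns1 r was 0.23 and rho 0.37, and between Cast and Capns1 they were 0.16 and 0.37 (12 animals each). Capn1 had an r of -0.45 with Capns1, which went to -0.04 without Wfs1KO 2 and Wfs1KO 3, and an r of -0.13 with Cast. Its r with Capn2 was -0.00 and its rho -0.08. For Capn2 and Capns1 r went to 0.40 without Wfs1HZ 2 and WT 3. With median-of-ratios scaling r was 0.26 between Capn2 and Capns1, 0.17 between Cast and Capns1, and -0.01, 0.13 and 0.22 between Capn1 and Capns1, Cast and Capn2. Without Wfs1KO 2 and Wfs1HZ 4 the last 3 values went to 0.52, -0.22 and 0.09. A low r over 12 animals, with few reads for Capn1, does not show that 2 genes are unrelated.

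**Figure D4:**
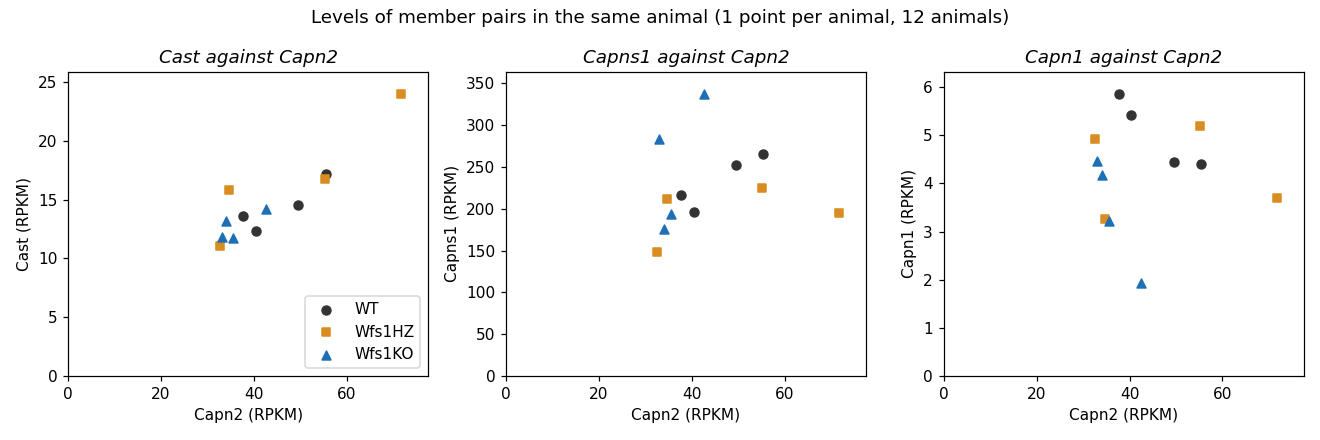
Levels of Cast, Capns1 and Capn1 (RPKM, vertical axes) against Capn2 (RPKM, horizontal axis) in the same animal, 1 point for each of 12 animals, coloured by genotype. In the deposited values Cast climbs with Capn2 up to Wfs1HZ 2 at 71.72 and 23.95 RPKM, while Capns1 and Capn1 are scattered.

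The transcripts most like each gene over the 12 animals were found by the same measure. For Capn2 these were Ctnnd1, the gene of the junction protein p120 catenin (r = 0.97), Plin2, which codes for a lipid droplet coat protein (r = 0.93), and Mcmbp, which codes for a partner of the replicative helicase (r = 0.91). For Cast they were Phldb2 (r = 0.93), Sntb2 (r = 0.90) and Trp53bp2 (r = 0.90), which code for proteins of the cell cortex, the dystrophin complex and the p53 pathway. Capns1 was most like Zfp106 (r = 0.97), Ubxn4 (r = 0.96) and Mybbp1a (r = 0.94). For Capn1 the highest values were lower, with Gm572 at 0.82, 4931406C07Rik at 0.77 and Trf, the transferrin gene, at 0.75. With median-of-ratios scaling the same 3 transcripts led for Capn2, whereas for Cast Phldb2 ranked 17, Sntb2 23 and Trp53bp2 4, for Capns1 Mybbp1a ranked 5, and for Capn1 4931406C07Rik ranked 6 and Trf 12. These are descriptions of 12 libraries, with the highest of 7995 values (7996 for Capn1) taken in each case.

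Since Capn2 and Cast varied together, their promoters are shown, as the 250 bases before the transcription start in RefSeq (GRCm38.p6, the same assembly as mm10). RefSeq windows were at hand for 6 of the 7 genes, 10 in all, with 4 for Cast and 2 for Capn1. For Cast the window with the most CpG pairs is printed, since the RPKM do not say which start was used in islets. Capn2 is at chr1:182517611-182517860 and Cast at chr13:74807961-74808210, both on the minus strand and written 5′ to 3′. Capitals mark GC boxes (GGGCGG) and CCAAT boxes (CCAAT), on either strand.
Capn2 promoter: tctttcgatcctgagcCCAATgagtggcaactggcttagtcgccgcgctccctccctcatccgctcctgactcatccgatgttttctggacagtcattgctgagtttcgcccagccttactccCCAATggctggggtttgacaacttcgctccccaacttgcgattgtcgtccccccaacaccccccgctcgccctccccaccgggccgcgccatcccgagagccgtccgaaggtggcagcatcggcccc
Cast promoter: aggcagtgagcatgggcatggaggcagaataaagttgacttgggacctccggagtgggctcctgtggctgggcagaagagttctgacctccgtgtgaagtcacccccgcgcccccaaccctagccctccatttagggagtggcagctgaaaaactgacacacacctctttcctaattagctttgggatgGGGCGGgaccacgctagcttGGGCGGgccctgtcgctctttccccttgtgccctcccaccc

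The printed windows differed in these letters. Capn2 held 2 CCAAT boxes, no GC box and 19 CpG pairs, more than 80.3% of 32851 mouse promoter windows of the same length. The Cast window held 2 GC boxes, no CCAAT box and 8 CpG pairs, more than 57.0% of them. Of the 3 other Cast windows, 2 held 1 CCAAT box and no GC box, and 1 held neither, so which letters Capn2 and Cast share depends on the start. A CCAAT box was found in 33.8% of all windows, a GC box in 32.7% and a TATA box (TATAAA) in 12.4%, and none of the 10 windows of the members held the last. The motifs do not overlap in sequence, and a match is a run of letters, not a measured binding site.

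The balance of inhibitor to enzyme was described as the ratio of Cast RPKM to the sum of Capn1 and Capn2 RPKM in the same animal. It was 0.313, 0.268, 0.288 and 0.269 in WT animals 1 to 4. In Wfs1HZ it was 0.278, 0.318, 0.417 and 0.295, and in Wfs1KO 0.315, 0.319, 0.303 and 0.344. All Wfs1KO values lay above 3 of the 4 WT values, and the means were 0.285 ± 0.0207 in WT and 0.32 ± 0.0172 in Wfs1KO (SD, n = 4 each). Over all 12 animals this ratio had a CV of 13.0%, less than the 27.8% of Capn2 and the 24.1% of Cast taken alone (23.2% and 18.0% with median-of-ratios scaling, which leaves the ratio as it is). As a score over the members it was given no test. Capn2 made up most of the sum in every animal, so the smaller CV restates that Capn2 and Cast varied together and is not separate evidence.

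The ratio of the small subunit to the catalytic pair, Capns1 to Capn1 + Capn2, ran from 4.27 to 4.97 in WT, from 2.58 to 5.58 in Wfs1HZ and from 4.61 to 7.57 in Wfs1KO. Wfs1KO 1 and Wfs1KO 2, at 7.54 and 7.57, were the highest of all, while the other 2 Wfs1KO animals were at 4.99 and 4.61, near the WT range. Capn1 to Capn2 ran from 0.0794 to 0.155 in WT, 0.0516 to 0.151 in Wfs1HZ and 0.0453 to 0.135 in Wfs1KO, with much overlap. RNA of Capns1 exceeded that of the catalytic pair in every animal.

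**Figure D5:**
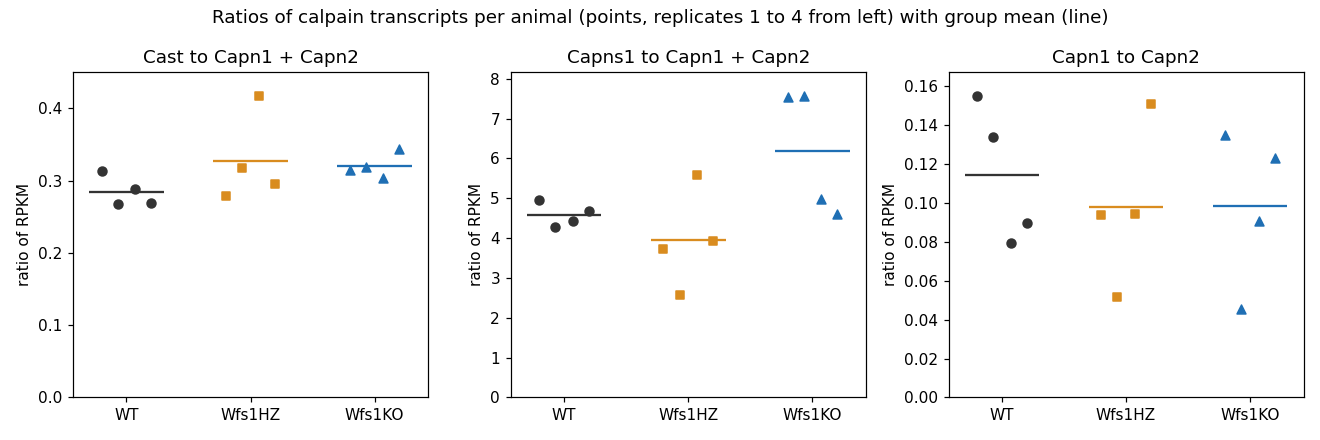
Ratios of RPKM within each animal by genotype: Cast to Capn1 + Capn2, Capns1 to Capn1 + Capn2, and Capn1 to Capn2, with 1 symbol per animal and the group mean as a line. The first ratio stays between 0.268 and 0.417, and the second is highest in Wfs1KO 1 and 2, at 7.54 and 7.57.

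Genes around the calpains were taken from lists of the calpain family and of known calpain substrates. These lists were chosen with earlier results of these data known. Of the 9 other calpain genes none passed an FDR of 0.05 in limma in any of the 3 comparisons. Against WT the Wfs1KO means lay higher for 7 and lower for 2, beside 12465 of all 21701 tested transcripts with a log2 fold change above 0. The lowest unadjusted p there was that of Capn9, a calpain of the digestive tract (limma p = 0.0356 unadjusted and 0.844 adjusted, exact permutation p = 0.086). Its log2 fold change of 1.23 rested on 0 to 6 estimated reads per library, with WT animals 3 and 4 at 0. Capns2 gave the largest value of this list between Wfs1HZ and WT, 1.38 (SE 0.92, 95% interval -0.68 to 3.44), from at most 5 reads.

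Of 16 genes whose proteins calpains are known to cut, none passed an FDR of 0.05 in limma in any comparison. Between Wfs1KO and WT 7 were higher and 9 lower, with a median of -0.05 beside 0.07 over all tested transcripts. Snap25, a SNARE protein gene of insulin granule release, was at 152.82, 165.57, 147.29 and 166.11 RPKM in WT and at 122.81, 141.53, 84.17 and 144.65 RPKM in Wfs1KO animals 1 to 4. It was the single one of the 16 whose Wfs1KO animals all lay below the WT animals, against 2.74% of all tested transcripts without overlap (log2 fold change -0.39, SE 0.21, 95% interval -0.86 to 0.08, limma adjusted p = 0.879, exact permutation p = 0.029). In Wfs1HZ the mean of Snap25 was 119 ± 26.5 RPKM, and the log2 fold change against WT was -0.43 (95% interval -0.92 to 0.06). The summed level of the 10 endocrine markers was 166000 to 261000 RPKM in WT and 96800 to 263000 RPKM in Wfs1KO. This sum was lowest in Wfs1KO 3, which also had the lowest Snap25. The part of tissue makeup in the Snap25 values was not tested.

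Other substrates gave wide intervals. Casp12, a caspase of the endoplasmic reticulum, gave 1.05 on the log2 scale for Wfs1KO over WT (SE 0.54, 95% interval -0.16 to 2.26, limma adjusted p = 0.879), with means of 1.56 and 0.853 RPKM and overlapping animals. Bax, a gene of mitochondrial cell death, gave 0.62 (SE 0.31, 95% interval -0.08 to 1.32, limma adjusted p = 0.879) between Wfs1KO and WT. Against Wfs1HZ, Bax gave 0.51 (limma p = 0.0484 unadjusted and 1.0 adjusted, exact permutation p = 0.086), the single one of 16 substrates under 0.05 before adjustment in that comparison, against 2.45% of all tested transcripts. There Flna gave -0.55 and Bid 0.55. The spectrin gene Sptan1, the substrate most used to follow calpain activity, gave -0.23 between Wfs1KO and WT (95% interval -0.69 to 0.22). Cdk5r1, whose product p35 is cut to p25, gave -0.22 (95% interval -1.24 to 0.79) at a mean of 0.807 RPKM over 12 animals. These are RNA levels, and cleavage of the proteins was not measured.

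Cisd2, the gene of the other form of Wolfram syndrome, was at 13.3 ± 3.97 RPKM in WT, 10.7 ± 2.46 RPKM in Wfs1HZ and 11.2 ± 2.01 RPKM in Wfs1KO (SD, n = 4 each). For Wfs1KO over WT its log2 fold change came to -0.23 (SE 0.24, 95% interval -0.77 to 0.31, limma adjusted p = 0.936), and the groups overlapped.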

How the data were processed

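The authors made cDNA from 10 ng of total islet RNA with the Ovation RNA-Seq System V2, sequenced paired reads (75 and 35 bp) on a SOLiD 5500xl and mapped them to mm10 with LifeScope. The deposited RPKM values, 1 column per animal and rounded to 2 decimals, were used without further scaling; the annotation and counting tool are not given in the sources used here. The authors tested counts with edgeR, a count test that could not be run on RPKM here. With it the paper reports more genes under an FDR of 0.05 than limma gave here, which was 3 between Wfs1KO and WT and 0 between Wfs1KO and Wfs1HZ. The shares of transcripts past the FDR given above therefore belong to this test. Depth was estimated from genes under 200 nt, where 96.3 to 100.0% of values were whole reads (within 0.1 read), and reads of a gene from its RPKM, annotated length and this depth, covering counting error only.

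Groups and animal numbers came from the sample labels, so p-values measure the spread between animals. Each pair of genotypes was fitted with limma 3.58.1 (R 4.3.3) on log2(RPKM + 0.1), with a variance trend, adjusting p-values (Benjamini-Hochberg) across the 21701 transcripts whose mean reached 0.1 RPKM. Fold changes on this scale understate those of low genes. Single genes were also compared by exact two-sided permutation of mean log2 values. The fit was tested on simulated data. Likeness was Pearson's r over 12 animals among single-named transcripts averaging 5 RPKM or more, the 3 highest being named. Named genes are the 7 members, Wfs1, Cisd2, Sptan1, Casp12, Cdk5r1, Snap25 and, from the lists of other calpains and substrates, up to 3 per comparison with the lowest unadjusted p. The members and lists were chosen with earlier results of these data known. Alternatives were 2 pseudocounts, 2 filters, 2 scalings, no variance trend, a single fit, a replicate block and each animal left out. Other steps ran in Python 3.11.15 (scipy 1.17.1, pandas 2.3.3, numpy 2.4.6).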

Additional observations from a re-analysis of the deposited data

How the results depend on the processing

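No member passed an FDR of 0.05 in limma under any alternative run, and the lowest adjusted p of any member was 0.593 (Capn1, Wfs1KO against WT). Of 21 log2 fold changes of members, 13 were never reversed in sign, though that of Cast between Wfs1HZ and WT fell to 0.00 without Wfs1HZ 2. Between Wfs1KO and WT the values with 1 animal left out ranged from -0.15 to 0.19 for Capn5, -0.13 to 0.18 for Capn7, -0.17 to 0.18 for Capn10 and -0.12 to 0.20 for Capns1. Capn7 gave -0.02 with quantile normalization, and Capn10 gave -0.02 with median-of-ratios scaling and -0.07 with quantile normalization. Between Wfs1KO and Wfs1HZ, Capn5 gave -0.03 and -0.04 under these scalings and -0.12 to 0.26 with 1 animal left out. Between Wfs1HZ and WT the leave-one-out values were -0.19 to 0.19 for Capn2, -0.19 to 0.09 for Capn5 and -0.42 to 0.03 for Capn7. Of the members that kept their sign, 1 animal left out gave -0.73 to -0.34 for Capn1, -0.41 to -0.23 for Capn2 and -0.25 to -0.08 for Cast between Wfs1KO and WT. Without Wfs1HZ 2 and 4, an alternative chosen after seeing the data because these libraries stood apart in marker levels, Capn5 gave -0.09 against Wfs1KO and 0.07 against WT, and Capn2 gave -0.05 against WT. Wfs1KO 3 and 4 also stood apart in acinar sums, at 258000 and 7780 RPKM. In Wfs1HZ 4 and 2 these sums were 287000 and 8190 RPKM. Wfs1KO 3 and 4 were left out singly, not together. The count of members whose groups did not overlap went from 0 to 1 between Wfs1KO and WT with both scalings (Capn1 each time), and was 0 to 1 with 1 animal left out (Capn1 without Wfs1KO 1, Capn2 without Wfs1KO 2). Between Wfs1KO and Wfs1HZ it was 1 with both scalings and without Wfs1HZ 2 and 4, and 0 to 1 with 1 animal left out, Cast in each case. The share of all tested transcripts without overlap is given for the main fit alone. Groups of fewer animals stay apart more readily, whereas the 2 scalings keep all animals. None of these counts has a background beside it, so they are not read as a result about the members. Transcripts past the FDR between Wfs1KO and WT numbered 3, and 0 with a pseudocount of 1, 5 with quantile normalization, 1 in a single fit and 0 to 1 with 1 animal left out. Quantile normalization gave 1 between Wfs1KO and Wfs1HZ, and between Wfs1HZ and WT there was 1 without a filter and 2 without a variance trend. At an unadjusted p under 0.05, the transcripts higher in Wfs1KO than WT were 848 of 1225, 889 of 1572 with median-of-ratios scaling and 696 of 1486 with quantile normalization. For Wfs1KO against Wfs1HZ the same counts were 368 of 532, 396 of 795 and 454 of 886. The adjusted p of Wfs1 between Wfs1KO and WT ran from 0.011 to 0.541 over the alternatives. The CV and likeness under median-of-ratios scaling were also added after seeing the data. The cause of these changes was not tested. Deviations from the group mean correlated at -0.174 to 0.228 between same-numbered animals. The values for numbers 2 and 4 of Wfs1HZ and WT were 0.228 and 0.21. Differently numbered animals were not set beside them, so whether the numbers mark pairs or batches was not tested. With the replicate block, 0 transcripts passed the FDR between Wfs1KO and WT, and no call on a member changed. Between Wfs1HZ and WT, 854 in place of 511 had an unadjusted p under 0.05 in limma with that block. Capn1 and Capn10 rested on the fewest reads, 25 to 155 and 5 to 59 by the estimate, and a difference inside their intervals is not shown to be absent.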
